A study of Mus musculus with 4 samples.

Results

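The MAP kinase cascade genes were taken as every gene of the deposited tables whose symbol names a MAP kinase (Mapk), a MAP kinase kinase (Map2k), a kinase of such kinases (Map3k), a kinase further upstream (Map4k) or a MAP kinase-activated protein kinase (Mapkapk). This naming rule uses no measured value. It found 38 genes among the 12750 symbols of the 4 libraries, namely 5 Map4k, 13 Map3k, 7 Map2k, 10 Mapk and 3 Mapkapk genes. Of these, 31 had a row in all 4 libraries, with 36 and 37 present in WT and GRK6-/- HSC and 32 and 36 in WT and GRK6-/- CLP. Map3k12, Map3k13, Mapk10, Mapk12 and Mapk15 are annotated on mm9 and fit the rule, but had no row in any of the 4 tables.

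RNA was sequenced from hematopoietic stem cells (HSC, gated as Lin-c-kit+sca-1+) and common lymphoid progenitors (CLP, gated as Lin-c-kit+sca-1+Il-7Ra+) of bone marrow. The donors were C57BL/6 mice, either wildtype (WT) or carrying the GRK6 knockout in the germ line (GRK6-/-), littermates aged 8 to 12 weeks by the study's methods, and no treatment was given in the labels. Each of the 4 groups was 1 library made from 13 to 15 cells of 3 to 4 mice, which were amplified cell by cell (20 and 10 cycles of PCR) from the poly(A) tail and then mixed. With 1 library per group a difference between groups and a difference between such mixes cannot be told apart, so a ratio has no error here and no p-value is given for it. Values are FPKM, fragments per kilobase of transcript relative to the mapped fragments of the library, and a gene without a row was taken as 0.

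In a MAP kinase cascade, a MAP3K phosphorylates a MAP2K, which phosphorylates a MAP kinase on a threonine and a tyrosine, and the MAP kinase then acts on transcription factors and on further kinases such as the MAPKAP kinases. The ERK branch is mainly driven by growth factor receptors through RAS and RAF, and the JNK and p38 branches by stress and cytokines. In blood-forming cells ERK signaling is known for its part in proliferation and lineage choice, and p38 is known as a kinase through which oxidative stress limits the lifespan of HSC.

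The threonine and tyrosine that a MAP2K phosphorylates are separated by a residue that differs between the branches, and the coding sequence at this site is shown for 7 of the measured MAP kinases that carry it. Each line gives 45 bases of the coding strand from GENCODE vM1 on NCBIM37 (mm9), 5′ to 3′, with the 9 bases of the Thr-X-Tyr codons in capitals.
Mapk3: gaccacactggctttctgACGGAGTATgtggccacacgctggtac
Mapk7: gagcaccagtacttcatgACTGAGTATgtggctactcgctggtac
Mapk8: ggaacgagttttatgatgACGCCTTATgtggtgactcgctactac
Mapk9: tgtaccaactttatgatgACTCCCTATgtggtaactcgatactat
Mapk11: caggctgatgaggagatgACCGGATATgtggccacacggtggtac
Mapk13: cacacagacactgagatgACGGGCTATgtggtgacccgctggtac
Mapk14: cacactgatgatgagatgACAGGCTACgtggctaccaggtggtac

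The middle codon was GAG (glutamate) in the ERK-type genes Mapk3 and Mapk7, CCT or CCC (proline) in the JNK genes Mapk8 and Mapk9, and GGA or GGC (glycine) in the p38 genes Mapk11, Mapk13 and Mapk14. Each stretch lay within a coding exon, at chr7:133906954-133906998 in exon 4 of Mapk3 and chr17:28865326-28865370 in exon 7 of Mapk14, both on the plus strand. The Mapk9 stretch was at chr11:49686314-49686358 in exon 5 and the Mapk13 stretch at chr17:28913271-28913315 in exon 7, both on the plus strand. The Mapk7, Mapk8 and Mapk11 stretches were on the minus strand, at chr11:61304906-61304950 in exon 4, chr14:34206171-34206215 in exon 6 and chr15:88976278-88976322 in exon 7. This Thr-X-Tyr pattern with its flanking conserved residues, searched in the coding frame, was found in 16 of 22737 genes with a coding sequence (0.0704%), of which 11 have a Mapk symbol of the kind chosen here and the other 5 were Cdkl genes. Mapk4 and Mapk6 gave no match to this pattern.

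The 4 libraries differed in estimated depth and in markers of other cells. The low FPKM values lay near steps that correspond to an estimated 2910000 and 3810000 fragments for WT and GRK6-/- HSC and 4360000 and 2790000 for WT and GRK6-/- CLP. By the study's methods a larger number of reads was obtained for each lineage, and how these estimates relate to it was not tested. By these estimates 30 to 33 of the 38 cascade genes had 10 fragments or more per library. Il7r, the receptor used to gate CLP, was at 120 and 75.1 FPKM in the CLP libraries and had no row or 1.08 FPKM in the HSC libraries. The 5 lymphoid progenitor markers summed to 168 and 118 FPKM in WT and GRK6-/- HSC and to 1293 and 859 FPKM in WT and GRK6-/- CLP. Of these, Dntt was at 114 and 92.3 FPKM in the HSC libraries, and Rag2 had no row in GRK6-/- CLP. As a sum the 10 stem cell markers were not higher in HSC, with 336 and 464 FPKM there and 434 and 703 FPKM in CLP. Single markers went both ways. Slamf1 was at 8.91 and 0.689 FPKM in WT and GRK6-/- HSC and at 0.172 and 0.136 FPKM in WT and GRK6-/- CLP. Flt3, which is also on the lymphoid progenitor list, was at 54.5 and 23.8 FPKM in HSC and at 124 and 219 FPKM in CLP. Ly6a, which encodes Sca-1, shared its row with other Ly6 genes and had no value of its own. The 8 erythroid markers summed to 19.8 FPKM in WT CLP and to 38.1 and 746 FPKM in the WT and GRK6-/- HSC libraries but 17533 in GRK6-/- CLP, where Hba-a2 alone was at 17220 FPKM and 6 of the 8 had a row (Hba-a1 and Hbb-b1 had no row in any library). The 7 B lineage markers summed to 968 FPKM in GRK6-/- CLP and to 35.5 to 115 in the others, with Pax5 without a row throughout. The 7 myeloid markers summed to 7632 to 17749 FPKM in the 4 libraries. Grk6 itself was at 42.7 and 26.9 FPKM in the libraries labelled WT HSC and WT CLP and at 89.4 and 57.6 FPKM in the libraries labelled GRK6-/- HSC and GRK6-/- CLP, which goes against the labels if the deleted part of the gene is counted. Values for single exons were not used here, and the GRK6-/- libraries are named below by their labels.

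Map4k1, Mapkapk2, Mapk3, Map3k15, Mapkapk3, Map2k2 and Mapk14 had the highest mean FPKM of the cascade genes, and the genes of ERK1 (Mapk3), p38 alpha (Mapk14), MEK2 (Map2k2) and MK2 (Mapkapk2) were at 35.2 FPKM or more in all 4 libraries. Summed over the 38 genes, the level was 719 and 815 FPKM in WT and GRK6-/- HSC and 913 and 710.4 FPKM in WT and GRK6-/- CLP. The MAP2K sum was 118 and 201 FPKM in WT and GRK6-/- HSC, and 148 and 137 in the corresponding CLP libraries. The MAP3K sum was 101 and 96.6 FPKM in HSC but 176 in WT CLP and 124 in GRK6-/- CLP. Map3k15 made up 50.1% and 70.5% of this sum in WT and GRK6-/- HSC and 49.4% and 39.6% in WT and GRK6-/- CLP. The Map3k15 rows overlap the last exon of Pdha1, which lies on the opposite strand. The part of Pdha1 reads in the MAP3K sum and in the sum over the 38 genes was not tested. The MAP4K sum was lowest in GRK6-/- CLP, at 123 FPKM against 179 to 194 in the others. The FPKM of all rows summed to 635168 and 694148 in WT and GRK6-/- HSC and to 646260 and 598394 in WT and GRK6-/- CLP. FPKM is relative to the mapped fragments of a library and is not an amount per cell. Whether a lower level goes with fewer cells of a type or with less of that RNA in each cell cannot be told apart.

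**Figure D1:**
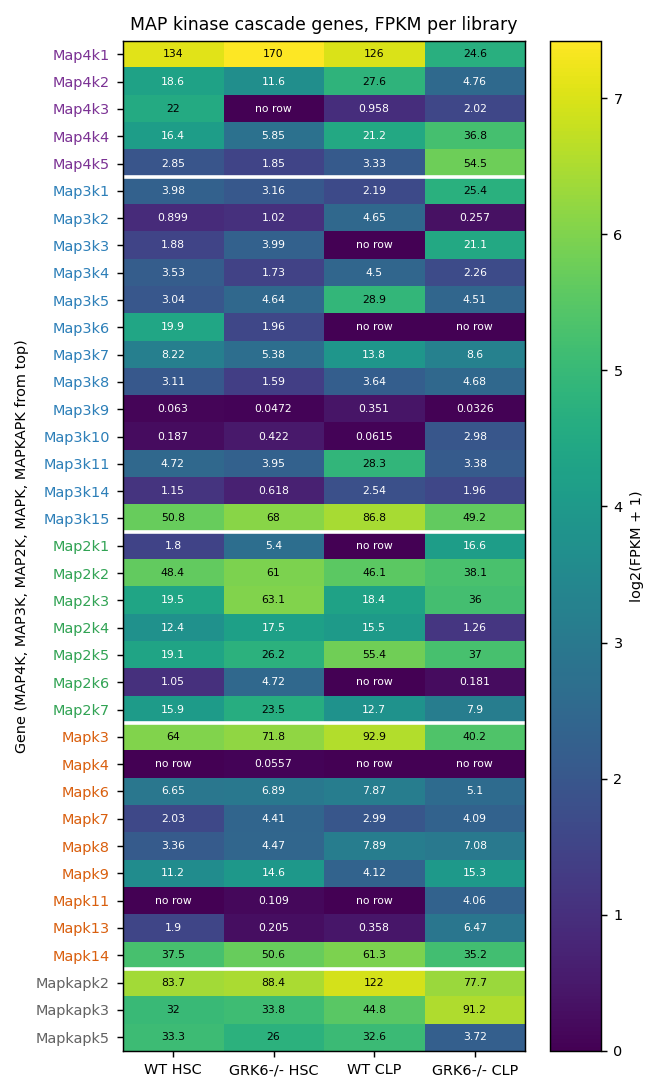
FPKM of 37 MAP kinase cascade genes (rows, by tier from MAP4K at the top to MAPKAPK at the bottom) in the 4 libraries (columns). Color gives log2(FPKM + 1), the printed number gives FPKM, and "no row" marks a gene absent from that table. Mapk3, Mapk14, Map2k2 and Mapkapk2 are bright in each column, whereas Map4k5 stands out at 54.5 FPKM in GRK6-/- CLP.

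The question put to each gene was whether its level in the GRK6-/- library was at least 2-fold from that in the WT library, on the scale of FPKM + 1. In HSC, 7 of the 38 cascade genes passed this limit, that is 18.4%, against 37.4% of all 11624 genes with a row in either HSC library. Map2k1, Map2k3 and Map2k6 were higher in GRK6-/- HSC (3 genes, 7.89%, against 19.3% of all genes), and Map3k6, Map4k3, Map4k4 and Mapk13 were lower (4 genes, 10.5%, against 18.0%). The median log2 ratio of the cascade genes was 0.08 and that of all genes 0.05, and the medians of the absolute ratio were 0.42 and 0.72. Among genes with at least 1 FPKM in both HSC libraries, 5 of 30 cascade genes and 32.0% of all genes passed. With a pseudocount of 5 in place of 1, Map2k1, Map2k6, Map4k4 and Mapk13 no longer did.

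In CLP, 17 of the 36 cascade genes with a row in either library passed the limit, that is 47.2%, against 50.0% of 11191 genes. Higher in GRK6-/- CLP were 9 genes (25%, against 26.6% of all genes), namely Map2k1, Map3k1, Map3k3, Map3k10, Map4k5, Mapk9, Mapk11, Mapk13 and Mapkapk3. Lower were 8 genes (22.2%, against 23.4%), namely Map2k4, Map3k2, Map3k5, Map3k11, Map4k1, Map4k2, Mapk3 and Mapkapk5. The share of cascade genes past 2-fold was thus near that of all genes in CLP, but past 4-fold it was 36.1% (13 of 36) against 24.8% of all genes, and with a pseudocount of 5 in place of 1 it was 36.1% against 32.4%. The median log2 ratio was -0.26 for the cascade genes and 0.05 for all genes, with absolute medians of 0.87 and 1.0. Of the cascade genes, 0 were past 2-fold lower in both populations, a pattern that 3.71% of all genes showed, and 0 were higher in HSC and lower in CLP, which 4.24% of all genes were.

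**Figure D2:**
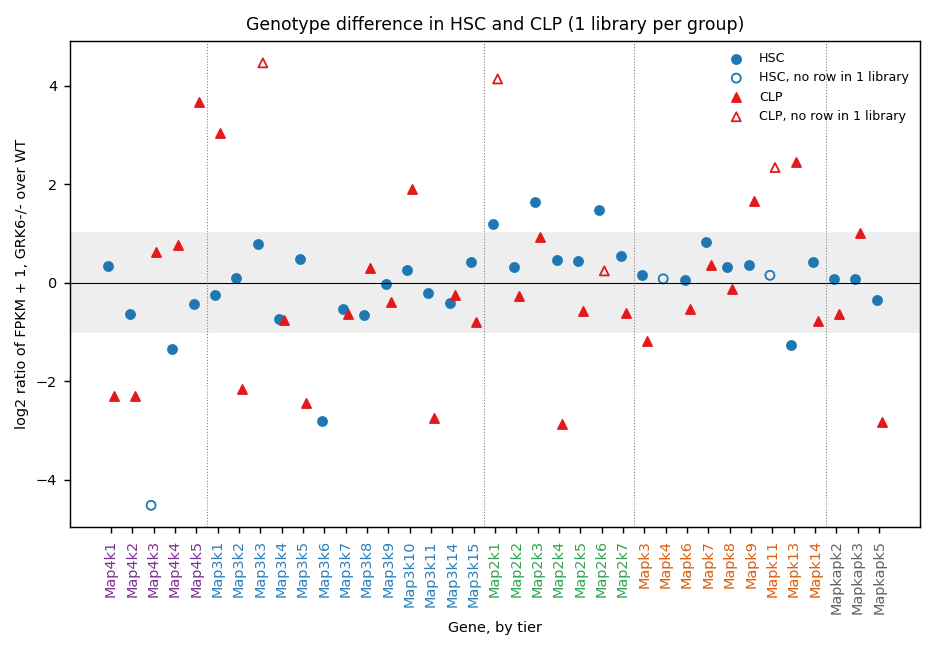
Log2 ratio of FPKM + 1 in GRK6-/- over WT for 37 cascade genes, in HSC (blue circles) and CLP (red triangles), ordered by tier. The grey band holds ratios under 2-fold, open symbols mark genes without a row in 1 of the libraries compared, and genes without a row in both are not drawn. The 7 HSC symbols of the MAP2K tier lie above 0, and CLP symbols lie outside the band more often, for 17 genes against 7.

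Between populations, 12 of 36 cascade genes differed by 2-fold or more in WT (33.3%, against 46.5% of 11202 genes), 5 of them higher in CLP and 7 lower (21.8% and 24.7% of all genes). In GRK6-/-, 18 of 38 differed (47.4%, against 45.6% of 11708 genes), 11 higher in CLP and 7 lower (22.3% and 23.4% of all genes). These comparisons use the same 4 libraries as the genotype comparisons, so a value particular to 1 library enters both. Map2k6 and Map3k6 were lower in CLP in both genotypes, a pattern that 5.77% of all genes showed, and 0 were higher in CLP in both, which 5.05% of all genes were. In WT, Map2k6 was just past the limit, with a log2 ratio of -1.03 against a median of -0.08 for all genes. That ratio rests on 1.05 FPKM in HSC, an estimated 6 fragments, and no row in CLP. Map2k1, Map3k3, Map4k3 and Mapk13 were lower in CLP than HSC in WT but higher in GRK6-/-, a pattern that 5% of all genes showed, and 0 did the opposite, which 4.57% of all genes did. For Map3k3 the CLP rows have limits given below.

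**Figure D3:**
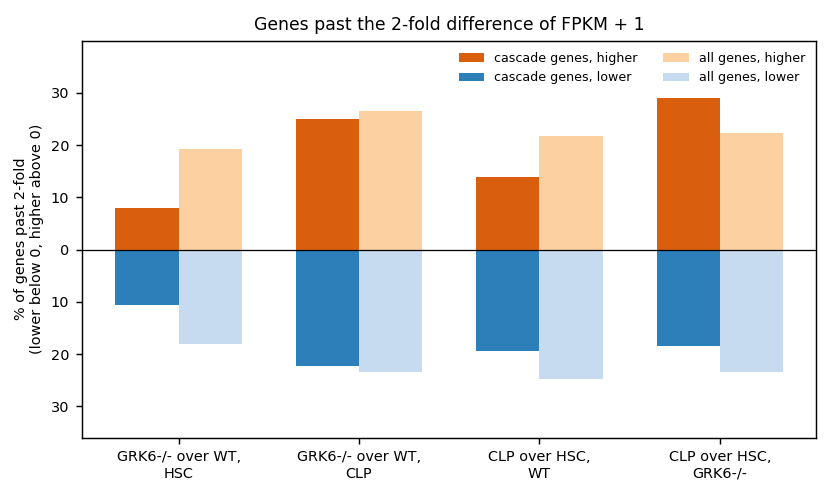
Percentage of genes at least 2-fold higher (above 0) or lower (below 0) in each of the 4 comparisons, for the cascade genes (dark bars) and all genes (light bars), on the scale of FPKM + 1. In HSC the dark bars reach 7.89% and 10.5% against 19.3% and 18.0% for all genes, and in CLP they reach 25% and 22.2% against 26.6% and 23.4%.

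Of the inputs of the cascade, ARAF and BRAF are MAP3Ks of the ERK branch with names of their own, and RAS proteins activate them. Araf was at 15.7 and 30.98 FPKM in WT and GRK6-/- HSC and at 37.3 and 79.1 FPKM in WT and GRK6-/- CLP, so that WT HSC was the low library and GRK6-/- CLP the high one. Of 18 RAS and RAF input genes with a row in HSC, 5 were past 2-fold higher in GRK6-/- HSC (Rras, Spred1 and Spry1 among them) and 2 lower (Spred2 and Spry2), 38.9% in all against 37.4% of all genes. In CLP 4 of 17 were higher (Rras, Araf and Spry2 among them) and 3 lower (Shc1, Ptpn11 and Spry1), 41.2% against 50.0%. Hras and Mos had no row in any library.

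The stress inputs include the small GTPases Rac1, Rac2 and Cdc42, which act through MAP4K and MAP3K kinases, and thioredoxin (Txn1), which binds and holds back ASK1. Txn1 was at 965 and 625 FPKM in WT and GRK6-/- HSC and at 736 and 649 FPKM in WT and GRK6-/- CLP. Rac2, the hematopoietic Rac, was at 245.5, 229 and 207 FPKM in WT HSC, GRK6-/- HSC and WT CLP and at 185 FPKM in GRK6-/- CLP. Neither gene reached a 2-fold difference in a genotype comparison. Of 14 stress input genes with a row in HSC, 1 was higher (Tab1) and 4 lower (Traf2, Traf6, Tab2 and Gadd45g) in GRK6-/- HSC, 35.7% against 37.4% of all genes. In CLP 4 of 13 were higher (Pak1, Traf2, Traf6 and Gadd45a) and 0 lower, 30.8% against 50.0% of all genes.

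The MAP4K tier was the one that varied most among libraries, with a median span from the lowest to the highest library of 2.60 on the log2 scale of FPKM + 1 for the 4 genes with a row in each, against 0.93 to 1.49 in the other tiers. HPK1 (Map4k1, chr7:29767873-29788300), a kinase of blood cells that acts below antigen receptors, was at 134 and 170.5 FPKM in WT and GRK6-/- HSC and at 126 and 24.6 FPKM in WT and GRK6-/- CLP. The GRK6-/- CLP library was the low one, 5.13-fold under WT CLP (log2 ratio of FPKM + 1 of -2.31), and the other 3 lay between 126 and 170.5 FPKM. Map4k2, whose product acts on the JNK branch, had a like pattern, with 18.6, 11.6, 27.6 and 4.76 FPKM and a log2 ratio of -2.31 in CLP. Map4k5, which encodes a related kinase, ran the other way, with 2.85, 1.85, 3.33 and 54.5 FPKM, the highest value in GRK6-/- CLP by 16.4-fold over WT CLP (log2 ratio of 3.68).

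Map4k4, whose product also acts on the JNK branch, was at 16.4 and 5.85 FPKM in WT and GRK6-/- HSC and at 21.2 and 36.8 FPKM in WT and GRK6-/- CLP. Its log2 ratio was -1.34 in HSC and 0.76 in CLP. Map4k3, whose product is tied to amino acid signaling, was at 22 FPKM in WT HSC, had no row in GRK6-/- HSC, and was at 0.958 FPKM in WT CLP and 2.02 in GRK6-/- CLP. WT HSC was therefore the library that stood apart for Map4k3. Map4k1 made up 69.2%, 89.8% and 70.4% of the summed MAP4K FPKM in WT HSC, GRK6-/- HSC and WT CLP, but 20.0% in GRK6-/- CLP, where Map4k5 made up 44.5% and Map4k4 29.97%. The erythroid markers summed to 17533 FPKM in GRK6-/- CLP. Their next highest sum, 746 FPKM, was in GRK6-/- HSC, with Car1 alone at 612 FPKM. The B lineage markers were also highest in GRK6-/- CLP, at 968 FPKM. The part of the cells behind these markers in the MAP4K values was not tested.

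**Figure D4:**
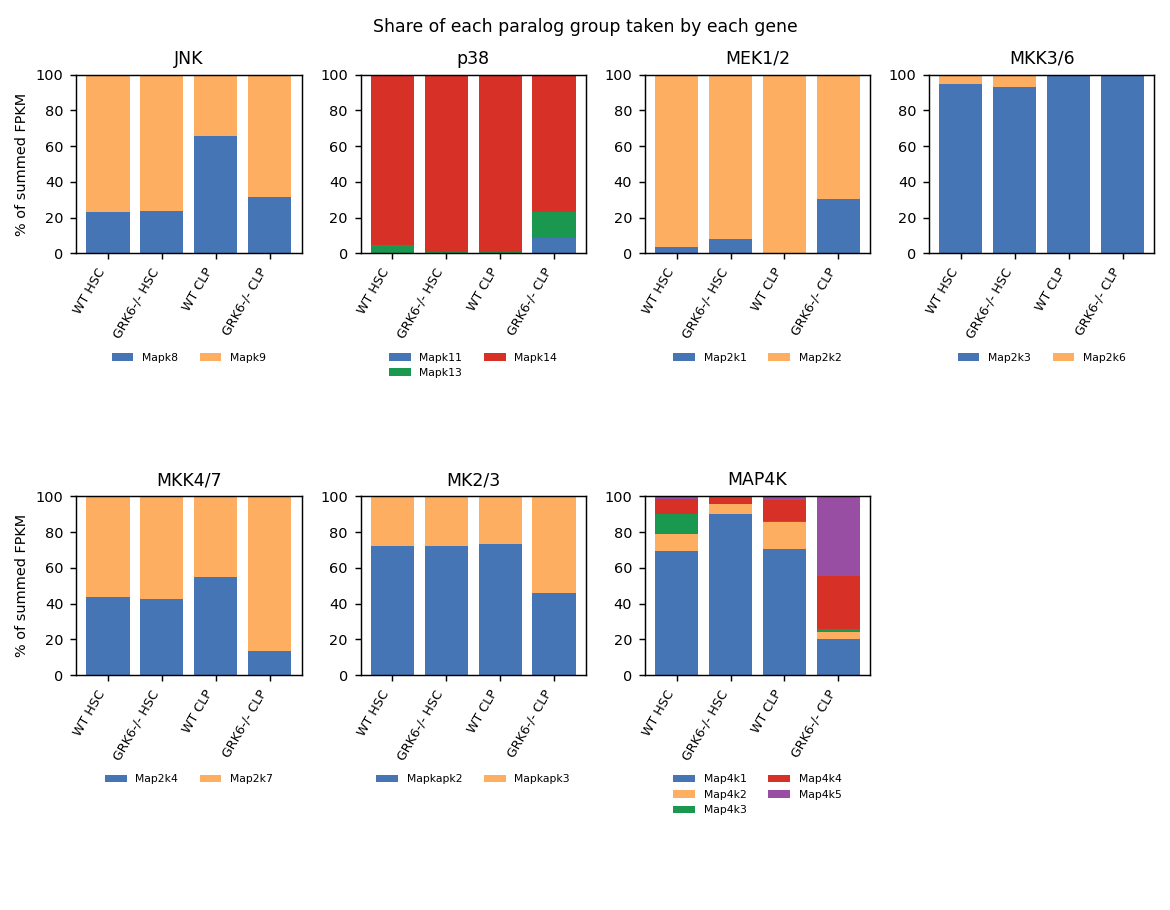
Percentage of the summed FPKM of each group of related genes taken by each member, in the 4 libraries. JNK is Mapk8 and Mapk9, p38 is Mapk11, Mapk13 and Mapk14, MEK1/2 is Map2k1 and Map2k2, MKK3/6 is Map2k3 and Map2k6, MKK4/7 is Map2k4 and Map2k7, and MK2/3 is Mapkapk2 and Mapkapk3. The GRK6-/- CLP bar differs in shape in the MAP4K, MK2/3 and MKK4/7 panels, and the WT CLP bar in the JNK panel, where Mapk8 takes 65.7%.

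Among the MAP3K genes the highest value belonged to Map3k15 (chrX:156426365-156561880), which encodes a kinase of the ASK family, at 50.8 and 68.04 FPKM in WT and GRK6-/- HSC and at 86.8 and 49.2 FPKM in WT and GRK6-/- CLP. The 4 values spanned 1.76-fold. However, the deposited rows ended at positions 156561872 to 156561880, past the annotated end of the gene at 156561283 and within 7 bases of position 156561879, where the last exon of Pdha1 begins on the opposite strand. The exons of Map3k15 and Pdha1, the latter encoding a subunit of pyruvate dehydrogenase, share 603 bases, 13.9% of the exon bases of Map3k15. No use of strand in counting is given in the sources used here, and without it reads from the overlap of the pair cannot be told apart. Pdha1 was at 23.7, 21.3, 18.01 and 13.8 FPKM in the same libraries.

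**Figure D5:**
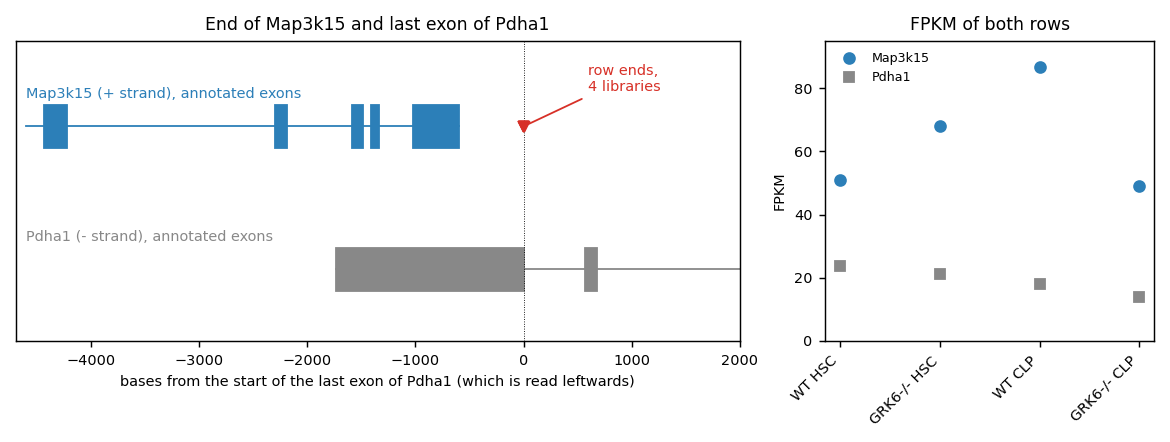
Left, annotated exons at the end of Map3k15 (blue) and Pdha1 (grey) against the distance in bases from the start of the last exon of Pdha1, with the ends of the 4 deposited Map3k15 rows (red). Right, FPKM of both genes in the 4 libraries, where Map3k15 lies between 49.2 and 86.8 FPKM and Pdha1 between 13.8 and 23.7 FPKM.

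ASK1 (Map3k5), the stress kinase that thioredoxin holds back, was at 3.04 and 4.64 FPKM in WT and GRK6-/- HSC and at 28.9 and 4.51 FPKM in WT and GRK6-/- CLP. WT CLP was the high library, 9.53-fold over WT HSC and 6.42-fold over GRK6-/- CLP (log2 ratios of FPKM + 1 of 2.89 for CLP over HSC and -2.44 for GRK6-/- over WT). MLK3 (Map3k11), a mixed-lineage kinase of the JNK branch, was likewise highest in WT CLP, at 4.72, 3.95, 28.3 and 3.38 FPKM. ASK2 (Map3k6) was at 19.9 and 1.96 FPKM in WT and GRK6-/- HSC, a 10.1-fold lower value, and had no row in the CLP libraries.

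MEKK1 (Map3k1), which acts on the JNK branch, was high in GRK6-/- CLP, at 25.4 FPKM against 3.98 and 3.16 FPKM in the WT and GRK6-/- HSC libraries and 2.19 FPKM in WT CLP (log2 ratio of 3.05 in CLP). MEKK3 (Map3k3) was at 1.88, 3.99 and 21.1 FPKM in WT HSC, GRK6-/- HSC and GRK6-/- CLP and had no row in WT CLP. In WT CLP the row named for its neighbour Limd2 (109 FPKM) started at chr11 position 106015875 and ran 886 bases into the annotated Map3k3, whereas in the other 3 libraries the Limd2 row started at 106017570, beyond the gene. Absence of Map3k3 from WT CLP can therefore be a matter of how the row was named, which was not tested. The Map3k3 row of GRK6-/- CLP ended at 106017350, past the annotated end at 106016760, whereas both HSC rows ended at 106016748. The part of this longer stretch in the value of 21.1 FPKM was not tested. TAK1 (Map3k7), the MAP3K of cytokine and toll-like receptors, was at 8.22 and 5.38 FPKM in WT and GRK6-/- HSC and at 13.8 and 8.60 FPKM in WT and GRK6-/- CLP, with no genotype difference of 2-fold.

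The remaining MAP3K genes, Map3k2, Map3k4, Map3k8, Map3k9, Map3k10 and Map3k14, were below 5 FPKM in each library. Of these, Map3k2 (MEKK2), at 0.899, 1.02, 4.65 and 0.257 FPKM, was lower in GRK6-/- than WT CLP, and Map3k10 (MLK2), at 0.187, 0.422, 0.0615 and 2.98 FPKM, was higher. The estimated fragments behind Map3k10 were 2, 6, 1 and 31. Over the 13 MAP3K genes, 0 were past 2-fold higher and 1 lower in GRK6-/- HSC, and 3 were higher and 3 lower of 12 in CLP (7.69% and 50% past the limit, against 37.4% and 50.0% of all genes).

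The MAP2K tier was the one in which all members leaned one way in HSC, with 7 of 7 ratios above 0 and 3 past 2-fold, against 6018 of 11624 ratios above 0 over all genes. MKK3 (Map2k3), a kinase of p38, was at 19.5 and 63.1 FPKM in WT and GRK6-/- HSC and at 18.4 and 35.98 FPKM in WT and GRK6-/- CLP. Both GRK6-/- values were above both WT values, by 3.23-fold in HSC and 1.96-fold in CLP (log2 ratios of FPKM + 1 of 1.64 and 0.93). MKK6 (Map2k6), the other p38 kinase, was lower in level, at 1.05 and 4.72 FPKM in the HSC libraries, without a row in WT CLP and at 0.181 FPKM in GRK6-/- CLP. Map2k3 therefore took 93.0% to 100% of the summed FPKM of the pair.

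MEK1 (Map2k1, chr9:64033575-64101412), a kinase of the ERK branch, was at 1.80 and 5.40 FPKM in WT and GRK6-/- HSC, had no row in WT CLP and was at 16.6 FPKM in GRK6-/- CLP. It was the cascade gene past 2-fold in the same direction in both genotype comparisons, a pattern that 4.74% of all genes showed for higher values. The estimated fragments behind these values were 13, 50, 0 and 113. MEK2 (Map2k2), its close relative, was at 48.4, 61.0, 46.1 and 38.1 FPKM and spanned 1.603-fold. Map2k2 took 96.4%, 91.9%, 100% and 69.6% of the summed FPKM of the pair, so that the share of Map2k1 was highest in GRK6-/- CLP.

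MKK4 (Map2k4) and MKK7 (Map2k7) are the kinases of JNK. Map2k4 was at 12.4 and 17.5 FPKM in WT and GRK6-/- HSC and at 15.5 and 1.26 FPKM in WT and GRK6-/- CLP, 12.3-fold under WT CLP (log2 ratio of FPKM + 1 of -2.87). Map2k7 was at 15.9, 23.5, 12.7 and 7.90 FPKM. Gm14378 on the same strand shares 21.6% of the annotated exon bases of Map2k7. These shared bases begin at chr8 position 4249205, beyond the deposited Map2k7 rows, which ended at 4247897. MEK5 (Map2k5), the kinase of ERK5, was at 19.1 and 26.2 FPKM in the HSC libraries and at 55.4 and 37.0 FPKM in WT and GRK6-/- CLP, so that both CLP values were above both HSC values. In CLP the MAP2K ratios of GRK6-/- over WT were split, with 3 above 0 and 4 below.

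The MAP kinases themselves varied least. Over the 8 of them with a row in all 4 libraries the median span from the lowest to the highest library was 0.93 on the log2 scale of FPKM + 1, against 1.48 for 31 cascade genes and 1.70 for 8246 genes. ERK1 (Mapk3) was at 64.0 and 71.8 FPKM in WT and GRK6-/- HSC and at 92.9 and 40.2 FPKM in WT and GRK6-/- CLP, highest in WT CLP and lowest in GRK6-/- CLP, with a log2 ratio of -1.19 in CLP. It carries the GAG codon in the Thr-X-Tyr site printed above. ERK5 (Mapk7), of the same codon, was at 2.03, 4.41, 2.99 and 4.09 FPKM.

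Of the JNK genes, Mapk8 (JNK1) was at 3.36 and 4.47 FPKM in WT and GRK6-/- HSC and at 7.89 and 7.08 FPKM in WT and GRK6-/- CLP. Mapk9 (JNK2) was at 11.2, 14.6, 4.12 and 15.3 FPKM, and WT CLP was the low library (log2 ratio of 1.67 for GRK6-/- over WT in CLP). Mapk9 thus took 76.9%, 76.6% and 68.3% of the JNK sum in WT HSC, GRK6-/- HSC and GRK6-/- CLP but 34.3% in WT CLP. Mapk10 (JNK3), known from neurons, had no row.

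Of the p38 genes, Mapk14 (p38 alpha) was at 37.5 and 50.6 FPKM in WT and GRK6-/- HSC and at 61.3 and 35.2 FPKM in WT and GRK6-/- CLP, a span of 1.74-fold, and took 95.2%, 99.4%, 99.4% and 77.0% of the p38 sum. Mapk13 (p38 delta) was at 1.90, 0.205, 0.358 and 6.47 FPKM, from an estimated 8, 1, 2 and 25 fragments. It was the cascade gene past 2-fold in opposite directions, lower in GRK6-/- HSC (log2 ratio of FPKM + 1 of -1.27) and higher in GRK6-/- CLP (2.46), a pattern that 4.77% of all genes showed. Mapk11 (p38 beta) was at 0.109 FPKM in GRK6-/- HSC and 4.06 in GRK6-/- CLP, with no row in the WT libraries. Mapk12 (p38 gamma), known from muscle, had no row. All of the Mapk11 and Mapk13 signal above 2 FPKM was thus in GRK6-/- CLP.

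The atypical MAP kinase ERK3 (Mapk6) was at 6.65 and 6.89 FPKM in WT and GRK6-/- HSC and at 7.87 and 5.10 FPKM in WT and GRK6-/- CLP. Its relative ERK4 (Mapk4) had a row in GRK6-/- HSC alone, at 0.0557 FPKM from an estimated 1 fragment.

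The MAPKAP kinases act below p38 and ERK. MK2 (Mapkapk2), which controls the stability of cytokine mRNAs, was at 83.7 and 88.4 FPKM in WT and GRK6-/- HSC and at 122 and 77.7 FPKM in WT and GRK6-/- CLP, a span of 1.57-fold. MK3 (Mapkapk3), its close relative, was at 32.0, 33.8, 44.8 and 91.2 FPKM, highest in GRK6-/- CLP (log2 ratio of 1.01 in CLP, and 0.96 after the ratios were centred on the median of all genes). Mapkapk2 took 72.4%, 72.3% and 73.2% of the pair's sum in the first 3 libraries and 46.0% in GRK6-/- CLP. MK5 (Mapkapk5), which pairs with ERK3, was at 33.3, 26.04 and 32.6 FPKM in WT HSC, GRK6-/- HSC and WT CLP and at 3.72 FPKM in GRK6-/- CLP, 8.75-fold under WT CLP. Adam1a shares 12.4% of the annotated exon bases of Mapkapk5 and Tmem116 13.7%. The shared bases end at chr5 positions 121969392 and 121974192, outside the deposited Mapkapk5 rows, which started at 121975058 to 121975060.

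In several genes 1 library stood at least 4-fold from each of the other 3 on the scale of FPKM + 1, a limit chosen after the values were seen. GRK6-/- CLP was the high library for Map3k1, Map3k3, Map4k5 and Mapk11 (4 of 38, 10.5%, against 3.94% of all genes) and the low library for Map2k4, Map4k1 and Mapkapk5 (3 of 38, 7.89%, against 2.38%). For Map3k3 the limits of its CLP rows given above apply. WT HSC was the high library for Map3k6 and Map4k3 (5.26%, against 1.95%), and WT CLP for Map3k5 and Map3k11 (5.26%, against 2.68%). GRK6-/- HSC stood apart in 0 of 38 (1.61% of all genes were high and 0.620% low there), and WT HSC was the low library in 0 of 38 (0.797% of all genes), as was WT CLP (2.38%). GRK6-/- CLP was also the library with the highest erythroid and B lineage marker sums and the lowest estimated depth, whose part in these values was not tested. At the other end, 8 of 31 genes with 4 rows spanned less than 2-fold over the libraries on the scale of FPKM + 1 (25.8%, against 21.4% of all genes). Map2k2, Map3k9, Map3k15, Mapk6, Mapk7, Mapk14 and Mapkapk2 were among them. On FPKM itself Mapk7 spanned 2.17-fold and Map3k9, below 0.4 FPKM throughout, 10.8-fold.

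Other kinases of the family carry symbols outside the naming rule. Of 13 such relatives with a row in HSC, 0 were higher and 6 lower in GRK6-/- HSC, namely Taok1, Mknk2 and the RSK and MSK genes Rps6ka2, Rps6ka3, Rps6ka4 and Rps6ka5 (46.2% past 2-fold, against 37.4% of all genes). In CLP 5 of 14 were higher and 2 lower (50% against 50.0%). Mknk2, which encodes MNK2, a kinase of the translation factor eIF4E that ERK and p38 activate, was at 311 and 44.1 FPKM in WT and GRK6-/- HSC and at 49.7 and 41.2 FPKM in WT and GRK6-/- CLP, so that WT HSC alone was high. RSK1 (Rps6ka1), an ERK substrate, was at 64.7, 58.1, 66.8 and 48.9 FPKM. Of the scaffolds, Pebp1, the RAF kinase inhibitor protein, was at 405, 368, 325 and 179 FPKM.

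The phosphatases and nuclear targets lie at the end of the cascade. Dusp6, a phosphatase of ERK and an ERK-induced gene, was at 5.02 and 2.08 FPKM in WT and GRK6-/- HSC and at 22.8 and 42.3 FPKM in WT and GRK6-/- CLP, both CLP values above both HSC values. Dusp2, the phosphatase gene with the highest mean, was at 73.7, 42.6, 90.9 and 126 FPKM. Among 10 phosphatase genes with a row, 2 were higher and 2 lower in GRK6-/- HSC, and 2 higher and 1 lower in GRK6-/- CLP (40% and 30% past 2-fold, against 37.4% and 50.0% of all genes). Fos, an immediate early gene, was at 46.2, 73.6, 273 and 165 FPKM, and Egr1, another, at 29.7, 43.9, 102 and 125 FPKM, again higher in both CLP libraries. Of 17 target transcription factor genes with a row in CLP, 3 were higher in GRK6-/- CLP (Jun, Mef2a and Ets1) and 8 lower (Elk3, Elk4, Junb, Fosb, Fosl2, Mef2c, Mef2d and Creb1), that is 64.7% past 2-fold against 50.0% of all genes. In HSC 2 of 19 were higher (Elk1 and Ddit3) and 4 lower (Jun, Jund, Mef2a and Mef2d), 31.6% against 37.4% of all genes.

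An effect of genotype shared by both populations was fitted with limma over all 4 libraries with population as a term, which leaves 1 residual degree of freedom. Of 36 cascade genes among the 11230 genes fitted, 0 had an adjusted p-value under 0.05. An unadjusted p-value under 0.05 was found for 0 of 36, against 5.8% of all genes fitted. The lowest adjusted p-value, 0.868 by limma, was that of Map2k1 (log2 change of 2.67, SE 1.39, higher in GRK6-/- in both pairs of libraries). For a population effect common to both genotypes, 0 of 36 had an adjusted p-value under 0.05. An unadjusted p-value under 0.05 was found for 2 of 36, against 6.84% of all genes fitted. These were Map4k1 (log2 change of -1.42, SE 0.61, adjusted p-value 0.521 by limma) and Map3k6 (log2 change of -2.97, SE 1.41, adjusted p-value 0.639 by limma). Map4k1 was near equal in the WT libraries, at 134 FPKM in HSC and 126 FPKM in CLP (log2 ratio of -0.09). In GRK6-/- it was at 170.5 and 24.6 FPKM (log2 ratio of -2.74), so its fitted change rests mainly on the GRK6-/- libraries. Map3k6 had no row in either CLP library, with log2 ratios of -4.38 in WT and -1.57 in GRK6-/-. Over all genes the same fit gave 57 and 80 genes with an adjusted p-value under 0.05, but 0 and 1 without a trend of the variance on the mean.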

How the data were processed

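The labels name mm9 and TopHat 1.4.0, and by the study's methods the authors aligned reads and computed expression with the Tuxedo suite and deposited FPKM per gene and library, without counts or errors. The tool version and settings for FPKM, the annotation and any use of strand are not given in the sources used here. FPKM divides by the whole transcript length although cDNA began at the poly(A) tail. Amplification without molecular identifiers means that estimated fragments are not independent molecules.

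Symbols were matched to the naming rule. Of 12750 symbols, 333 in rows naming several genes were left out (0 cascade genes), leaving 12417. Rows of 1 symbol were summed. Log2 ratios used FPKM + 1, which understates differences of low genes, and a gene needed a row in at least 1 of the 2 libraries compared. With 1 library per group no test was made of a ratio, and the 2-fold limit followed the study. The limma 3.58.1 fit (R 4.3.3) used log2(FPKM + 1) with a variance trend, genes of at least 1 FPKM in at least 1 library and Benjamini-Hochberg adjustment over all genes. On simulated data for the genotype effect with 200 of 11230 genes moved by 6 log2 units, it recovered 100% with 7 false calls. Those effects were large and the noise small. Depth was estimated from steps of 1 to 3 fragments in values under 0.3 FPKM, where 74.4% to 81.6% of values lay within 10% of a step. The depth was itself chosen for a high share near a step, so this share is no check of it. No interval is given, since the files hold no counts.

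The cascade genes, the pathway lists (97 symbols, 84 with a value, among those without being older names of listed genes) and the marker lists (43 genes) were chosen with earlier results of these data known. All cascade genes entered the counts, and the values of 1 of them and of some pathway genes are not reported here. Values in every library were printed for the 2 most abundant per tier, for members of paralog groups, for those of at least 10 FPKM past 2-fold between genotypes, for those past 2-fold the same way in both genotype or both population comparisons, and for those without a row in a library. A few others (Map3k2, Map3k7, Map3k10 and Mapk7) were printed after their values were seen. Of the lists, genes with the highest mean FPKM or without a row were to be printed. Dusp6 and Egr1 were chosen after their values were seen. Exons, coordinates and coding sequences came from GENCODE vM1 on NCBIM37, the build of the files. Python 3.11.15 with pandas 2.3.3, numpy 2.4.6 and matplotlib 3.10.9 was used.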

Additional observations from a re-analysis of the deposited data

Results flagged for a closer look

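Mapk13 (p38 delta) differed in opposite directions between the genotypes in the 2 populations, with a log2 ratio of FPKM + 1 of -1.27 for GRK6-/- over WT in HSC and 2.46 in CLP. Each population had 1 library per genotype, so the difference between HSC and CLP was not tested, and the values rest on an estimated 1 to 25 fragments per library.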

How the results depend on the processing

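The number of cascade genes past 2-fold in GRK6-/- over WT HSC was 7. It was 3 with a pseudocount of 5 (7.89%, against 19.4% of all genes) and 2 with a limit of 4-fold (5.26%, against 12.4%). In CLP it was 17, and 11 of 27 (40.7%, against 40.5%) where at least 1 FPKM was required in both libraries. For CLP over HSC in WT it was 12, and 5 with a pseudocount of 5 (13.9%, against 28.3%), 5 of 27 with at least 1 FPKM in both libraries (18.5%, against 39.0%) and 4 with the 4-fold limit (11.1%, against 20.5%). For CLP over HSC in GRK6-/- it was 18, and 11 with a pseudocount of 5 (28.9%, against 26.9%) and 10 with the 4-fold limit (26.3%, against 19.1%). Fewer genes past the limit follow from these settings by construction. The other settings run (pseudocount of 0.1, at least 1 FPKM in either library, rescaling to a median of 0, the highest row per symbol, rows of several genes kept, and, added after seeing the data, rows in both libraries and leaving out Map3k15 and Map3k3), and those above in the other comparisons, moved these counts by at most 1.5 times. Of 421 ratios of single genes between genotypes, counted over these settings, 18 passed the limit no more and 6 passed it newly. One changed sign, that of Mapk6 in HSC, from 0.04 to -0.004 after rescaling. The FPKM filters and the 4-fold limit leave each ratio as it is, so only the pseudocounts and rescaling could change a value. Of the 18, 9 came from the 4-fold limit, 8 from the pseudocount of 5 and 1 from rescaling. The 6 came from the pseudocount of 0.1. Limma gave 0 cascade genes with an adjusted p-value under 0.05 in each of its settings, with the lowest adjusted p-value between 0.757 and 0.999 for genotype and between 0.436 and 0.833 for population. Over all genes its calls for genotype ranged from 0 to 69 and for population from 1 to 88.

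Leaving out a library was not run, because it leaves limma no residual degrees of freedom and ends each ratio that uses that library, while the other ratios stay as they are. No paired analysis was possible because each group held 1 library and the labels give no numbers that link libraries. Depth limits genes below about 2 FPKM, where 1 fragment in a transcript of 2 kilobases is worth 0.115 to 0.179 FPKM.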
